A study of Mus musculus with 4 samples.

Results

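The WNT gene list followed here holds 54 of the 28693 genes counted in 4 mouse mammary gland single-cell libraries. Its members were chosen by gene symbol and not by their values: 19 Wnt ligands, 10 Frizzled (Fzd) receptors, 8 secreted inhibitors of the Dkk and Sfrp families, 4 R-spondins, their 3 receptors *Lgr4*, *Lgr5* and *Lgr6*, the 2 co-receptors *Lrp5* and *Lrp6*, the ligand-processing enzyme *Porcn*, and 7 target or feedback genes (*Axin2*, *Nkd1*, *Nkd2*, *Lef1*, *Tcf7*, *Znrf3* and *Rnf43*). UMIs, the molecules counted after removal of PCR copies, were summed over the cells of each lineage in each library. 9 members had fewer than 10 UMIs in the 4 libraries together and are given by count alone: *Dkk4*, *Rspo4* and *Wnt3* had 0, *Rspo2*, *Wnt1*, *Wnt3a* and *Wnt8a* had 2 each, *Wnt10b* had 3 and *Wnt8b* had 8.

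WNT ligands are secreted glycoproteins that the acyltransferase PORCN must lipidate before they can leave the cell. In the canonical branch a ligand joins a Frizzled receptor to LRP5 or LRP6, beta-catenin escapes degradation, and TCF/LEF factors switch on target genes, several of which (*Axin2*, *Nkd1*, *Znrf3*, *Rnf43*) feed back to dampen the signal. R-spondins act through LGR4, LGR5 and LGR6 to remove the ubiquitin ligases ZNRF3 and RNF43 from the membrane and so keep Frizzled receptors there, while DKK proteins bind LRP5 and LRP6 and SFRP proteins bind the ligands themselves. Ligands such as WNT5A, WNT5B and WNT11 are known mostly for signalling without beta-catenin. In the mammary gland, *Wnt4* is a progesterone-responsive signal of hormone-sensing luminal cells, *Rspo1* comes from luminal cells, and basal cells include the cells that respond to both.

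Each library came from 1 mouse. The WT mice (replicates 1 and 2) carried floxed *Lats1* and *Lats2* alleles and 1 copy of an EYFP reporter behind a floxed stop at Rosa26, but no Cre. LATS1/2-KO mice had the same floxed alleles together with Krt8-CreERT2, which drives tamoxifen-dependent recombination in Krt8-expressing luminal cells. The reporter was heterozygous in LATS1/2-KO replicate 1 and homozygous in replicate 2. LATS1 and LATS2 are the kinases that hold the transcriptional co-activators YAP and TAZ in check. All 4 adult, nulliparous mice, WT included, received 2 mg tamoxifen on 5 days, and their glands were taken 7 days after the last dose and sorted for live cells. With no WT mouse carrying Cre, deletion of *Lats1/2* and the presence of Cre cannot be told apart. With 2 mice per condition, p-values measure the spread between these mice.

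After filtering, WT libraries held 4914 and 3515 cells and the LATS1/2-KO libraries 4499 and 5272, with 38792520 to 46810771 UMIs per library and 4 to 12 cell barcodes shared by any 2 libraries. Cells were clustered without the WNT genes and named from marker lists as luminal ER- (*Kit*, *Elf5*, *Aldh1a3*), luminal ER+ (*Esr1*, *Pgr*, *Prlr*), basal (*Krt5*, *Krt14*, *Acta2*), fibroblast, endothelial, lymphocyte, macrophage or perivascular. Each luminal ER- library gave 2108 to 2935 cells. Luminal ER+ cells numbered 1398 and 1042 in WT against 493 and 144 in LATS1/2-KO. Basal cells numbered 197 and 161 against 394 and 531, fibroblasts 62 and 28 against 327 and 972, endothelial cells 44 and 36 against 265 in each, and lymphocytes 175 and 80 against 29 and 123. Cells of the 2 conditions fell largely into different clusters of the same lineage: WT luminal ER- cells lay in clusters 1, 2, 10 and 14, LATS1/2-KO ones in clusters 3, 5, 4, 8 and 11. Summed levels of the 10 basal markers in luminal ER- cells were 34.4 and 25.9 CPM (UMI counts scaled to a common total) in WT against 1718 and 1404 in LATS1/2-KO, and those of the 10 luminal ER- markers 17770 and 21290 against 11360 and 12250. As a check of the genotype, normalized *Lats1* CPM in luminal ER- cells were 29.1 and 28.6 in WT against 12.3 and 14.4 in LATS1/2-KO. *Lats2* did not fall (17.003 and 18.9 against 25.7 and 27.0) and was called higher in LATS1/2-KO (log2 fold change 0.56 ± 0.11 SE, edgeR adjusted p = 0.0023). Whether its 3′ tags lie outside the deleted exons was not examined, so that deletion of *Lats2* was not checked here. *Ctgf*, a YAP/TAZ target, was at 16.9 and 11.7 against 491.8 and 740.2 normalized CPM. The reporter transcript was found in 21.6% and 27.1% of LATS1/2-KO luminal ER- cells, against 0.273% and 0.38% in WT. In LATS1/2-KO lymphocytes, a lineage in which Krt8-CreERT2 is not active, it was found in 3.45% and 2.44% (1 of 29 and 3 of 123 cells). The share was 2.64% and 5.28% in LATS1/2-KO endothelial cells.

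Levels below are CPM of the UMIs of a lineage in a library. They come from 3′ ends and are set side by side between genes without a correction for transcript length. Differences between genes in capture were not tested. Lineages differed in the WNT genes that led them, as the heatmap of levels by cell class shows. Among ligands, *Wnt4* was highest in luminal ER+ cells, at 392.7 and 360.8 CPM in the WT libraries and 430.1 and 582.5 in the LATS1/2-KO ones. *Wnt5b* led in WT luminal ER- cells (85.8 and 76.7 CPM) and *Wnt5a* in WT basal cells (45.4 and 50.2 CPM). Basal cells of WT mice also held the inhibitor *Sfrp1* at 110.1 and 155.1 CPM, the R-spondin receptor *Lgr5* at 70.2 and 110.8 CPM and the receptor *Fzd7* at 90.8 and 109.3 CPM. The inhibitor *Sfrp2* (146.5 and 107.8 CPM) and the receptors *Fzd1* (132.2 and 53.9 CPM) and *Fzd2* (96.5 and 107.8 CPM) led their families in WT fibroblasts. In endothelial cells *Fzd4*, a receptor known for its role in vessel growth, was the highest Frizzled in every library, at 147.6 and 110.0 CPM in WT and 97.6 and 98.2 CPM in LATS1/2-KO. *Tcf7* and *Lef1*, factors that T lymphocytes use, reached 182.7 and 162.4 CPM in the lymphocytes of WT 1, while *Lef1* was near 0 in the epithelium.

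**Figure D1:**
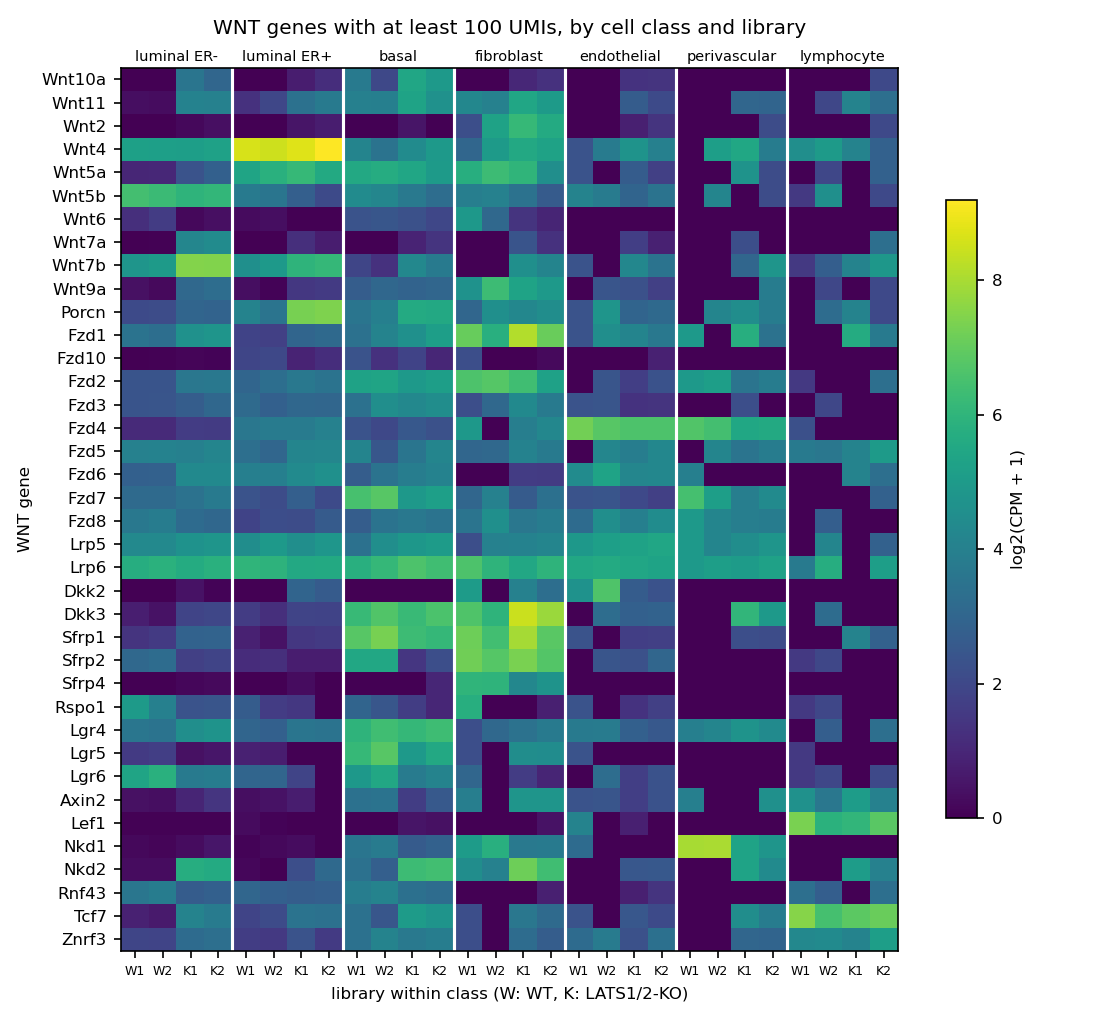
Level of each WNT gene with at least 100 UMIs, as log2(CPM + 1) in colour, by cell class and library (W1 and W2, WT; K1 and K2, LATS1/2-KO). Wnt4 stands out in luminal ER+ cells, Fzd4 in endothelial cells, and the rows of Wnt7a, Wnt10a and Nkd2 change from dark to green between WT and LATS1/2-KO luminal ER- cells.

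Luminal ER- cells, in which most Cre-marked cells were found, showed the largest number of differences. In LATS1/2-KO, 5 ligands that were at or near 0 to about 1 CPM in WT were measured at 3.60 to 18.1 normalized CPM, the already present *Wnt7b* rose about 5-fold, and the feedback gene *Nkd2* rose over 100-fold. The R-spondin *Rspo1*, the receptors *Lgr5* and *Lgr6*, the inhibitor *Sfrp2* and the ligase gene *Rnf43* fell. Of 32 members that passed the low-count filter, 17 were higher and 10 lower in LATS1/2-KO (edgeR quasi-likelihood test, Benjamini-Hochberg adjusted p under 0.05), which is 84.4%. Over all genes tested in these cells 64.4% were called, 33.7% higher and 30.7% lower. The median log2 fold change was 0.74 over the 32 members and 0.01 over all genes. Members such as *Wnt10a* and *Wnt7a* passed the filter through the LATS1/2-KO libraries alone and so could only be tested because they were high there. Their entry can raise both the median and the share called of the members. Neither was computed without such members.

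Values in the comparisons are normalized CPM, that is CPM after TMM scaling of the lineage's libraries, given for WT 1, WT 2, LATS1/2-KO 1 and LATS1/2-KO 2 in that order. *Wnt7b*, a canonical ligand, was at 30.3 and 34.9 in WT and at 157.3 and 151.9 in LATS1/2-KO (log2 fold change 2.25 ± 0.10 SE, adjusted p = 1.8e-06). The libraries of the 2 conditions were far apart and those within a condition close together. *Wnt7a*, its close paralog, had 0 and 1 UMIs in WT but 440 and 599 in LATS1/2-KO, or 0 and 0.0524 against 15.7 and 18.1 normalized CPM. The ratio was 714 with a 95% counting interval from 128 to 28219. *Wnt10a*, a further canonical ligand, had no UMI in either WT library and 275 and 206 UMIs in LATS1/2-KO (9.80 and 6.22), at least 110-fold higher against a floor of 3 counts over the WT group. Both genes thus passed from barely or not detected in 2 deep WT sums to a clear level in both LATS1/2-KO mice.

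*Wnt11* and *Wnt9a* had the same pattern from a slightly higher start. *Wnt11* was at 0.305 and 0.262 against 14.1 and 13.6 (log2 fold change 5.58 ± 0.23, adjusted p = 1.3e-06), and *Wnt9a* at 0.392 and 0.210 against 6.77 and 7.73 (4.54 ± 0.30, adjusted p = 9.7e-06). *Wnt5a* was at 1.09 and 1.15 against 3.60 and 5.29 (1.99 ± 0.29, adjusted p = 5.0e-04), and with cells gated one by one on their own markers at a log2 fold change of 0.64 (adjusted p = 0.0905). In none of these genes did the conditions overlap, and 31 of the 32 members tested in luminal ER- cells were apart in this way. The share over all genes was not counted, and 64.4% of all genes were called in this lineage. With 2 libraries per condition, genes that do not change can be apart as well, so this count says little about the members. Other ligands went the other way, with *Wnt5b* from 97.5 and 86.9 to 55.9 and 58.8 (-0.69 ± 0.10, adjusted p = 4.3e-04) and *Wnt6* from 1.57 and 2.41 to 0.143 and 0.272 (-3.19 ± 0.45, adjusted p = 4.2e-04). *Wnt4* was at 41.2 and 40.1 against 30.9 and 32.6 (-0.36 ± 0.09, adjusted p = 0.0102), but with library totals in place of TMM scaling its log2 fold change was 0.01 (adjusted p = 0.945), since that scaling moves the median of all genes in this lineage to 0.38. Under it 72.7% of all calls were higher in LATS1/2-KO, against 52.3% with TMM. *Porcn*, the enzyme that lipidates all WNT ligands, was at 3.58 and 3.83 against 6.24 and 5.71 (0.69 ± 0.18, adjusted p = 0.0103), a call lost without WT 1 (adjusted p = 0.0599) and with free RNA subtracted (0.45, adjusted p = 0.0765).

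**Figure D2:**
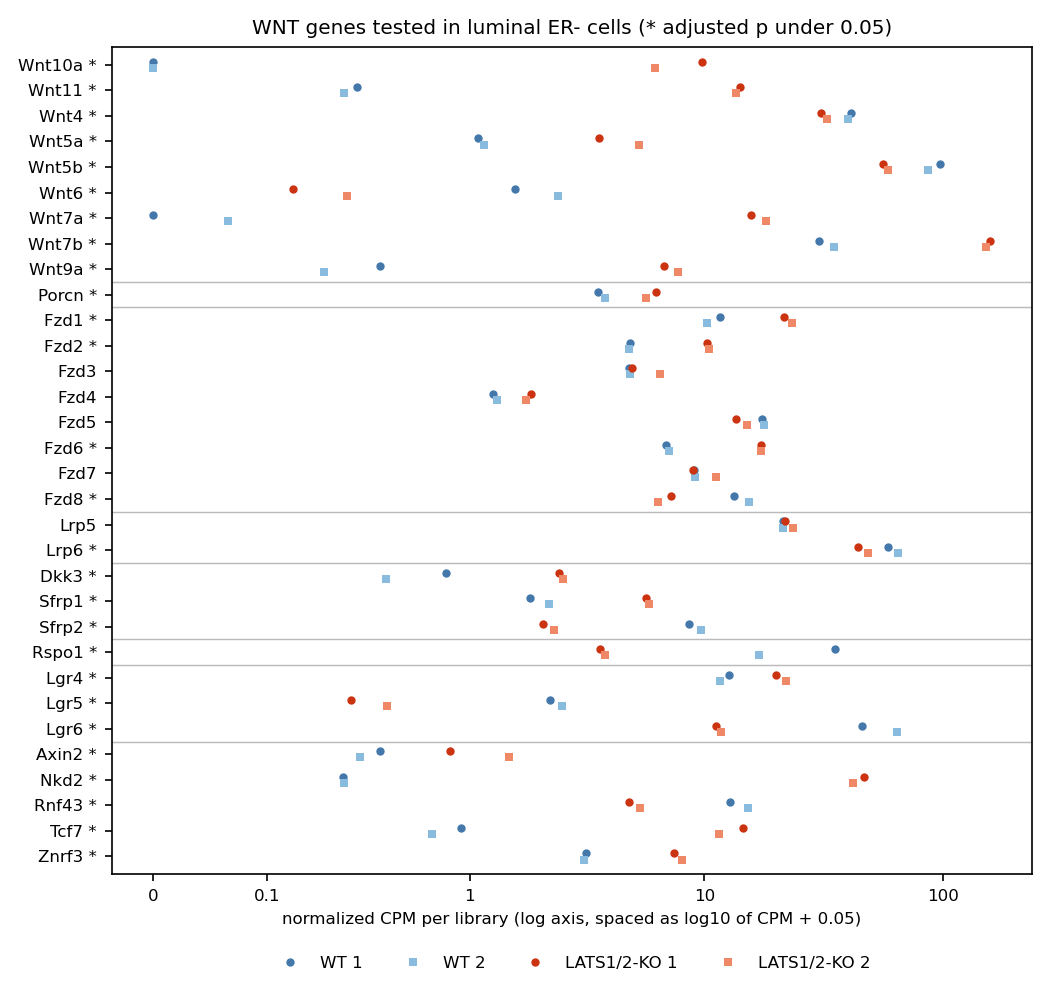
Normalized CPM of the 32 WNT genes tested in luminal ER- cells, 1 point per library, on a log axis offset by 0.05, grouped by role; blue, WT; red and orange, LATS1/2-KO; an asterisk marks an adjusted p under 0.05. For Wnt10a, Wnt11, Wnt7a, Wnt9a, Nkd2 and Tcf7 the red and orange points lie at 6.22 or above and the blue ones under 1.

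On the receiving side, changes were smaller. The receptor *Fzd6* was at 6.89 and 7.07 against 17.3 and 17.2 (1.31 ± 0.13, adjusted p = 6.0e-05), *Fzd2* at 4.88 and 4.82 against 10.3 and 10.4 (1.09 ± 0.15, adjusted p = 3.7e-04) and *Fzd1* at 11.6 and 10.2 against 21.6 and 23.2 (1.03 ± 0.12, adjusted p = 1.7e-04). *Fzd8* was at 13.4 and 15.5 against 7.27 and 6.40 (-1.08 ± 0.15, adjusted p = 3.9e-04). The 3 that rose were close to 2-fold apart in both pairs of libraries, and *Fzd8* was about as far apart in the opposite direction. *Fzd3*, *Fzd4*, *Fzd5*, *Fzd7* and the co-receptor *Lrp5* were tested and not called, with log2 fold changes between -0.30 and 0.48. The co-receptor *Lrp6* was at 59.1 and 64.8 against 44.2 and 48.7 (-0.41 ± 0.10, adjusted p = 0.0073), a call that was lost without WT 2 (adjusted p = 0.0507) and with library totals (log2 fold change -0.05).

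Among inhibitors, the WNT-binding proteins *Sfrp1* and *Sfrp2* moved in opposite directions. *Sfrp1* was at 1.83 and 2.20 against 5.70 and 5.83 (1.52 ± 0.21, adjusted p = 3.7e-04) and *Sfrp2* at 8.63 and 9.64 against 2.07 and 2.33 (-2.05 ± 0.18, adjusted p = 4.3e-05). *Dkk3*, a divergent DKK protein, was at 0.785 and 0.419 against 2.42 and 2.54 (2.01 ± 0.34, adjusted p = 0.0012). Free RNA in the droplets, estimated per library, would give 2.11 and 2.38 of the 2.72 and 2.90 unscaled CPM of *Dkk3* in LATS1/2-KO. With free RNA subtracted, its log2 fold change was 0.06 (adjusted p = 0.915).

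R-spondin signalling genes fell for the most part. *Rspo1* was at 35.1 and 17.03 in WT against 3.64 and 3.81 in LATS1/2-KO (-2.81 ± 0.40, adjusted p = 0.0033). The WT libraries differed about 2-fold between themselves, yet both lay above both LATS1/2-KO libraries. The call was lost without LATS1/2-KO 1 (adjusted p = 0.1605) or LATS1/2-KO 2 (0.18). Of the receptors, *Lgr6* was at 45.7 and 64.2 against 11.2 and 11.8 (-2.25 ± 0.17, adjusted p = 3.5e-05) and *Lgr5* at 2.22 and 2.52 against 0.285 and 0.423 (-2.71 ± 0.34, adjusted p = 2.6e-04). *Lgr4* was higher, at 12.6 and 11.6 against 20.03 and 22.05 (0.79 ± 0.12, adjusted p = 6.1e-04). Of the 2 ligases that R-spondins remove, *Rnf43* was at 12.8 and 15.2 against 4.81 and 5.35 (-1.46 ± 0.16, adjusted p = 1.1e-04) and *Znrf3* at 3.18 and 3.09 against 7.45 and 8.09 (1.31 ± 0.17, adjusted p = 3.3e-04).

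The feedback gene *Nkd2*, which codes for a Dishevelled-binding protein, had 6 and 5 UMIs in WT and 1312 and 1386 in LATS1/2-KO. Its levels were 0.262 in both WT libraries against 46.8 and 41.9 (7.38 ± 0.19, adjusted p = 2.9e-07). *Tcf7*, which codes for the transcription factor TCF1, was at 0.916 and 0.681 against 14.5 and 11.5 (4.001 ± 0.24, adjusted p = 5.5e-06). *Axin2*, a widely used readout of the canonical branch, stayed low: it was at 0.392 and 0.314 against 0.820 and 1.48 (1.69 ± 0.46, adjusted p = 0.0119), and its call was lost without WT 2 (adjusted p = 0.053) or LATS1/2-KO 2 (0.075). *Nkd2* and *Tcf7* were thus well apart between conditions, whereas *Axin2* differed by about 1 CPM.

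Further genes of the pathway, from a list of 49, gave 42 that passed the filter, of which 19 were higher and 16 lower (median log2 fold change 0.16). The share called was 83.3%, beside 64.4% of all genes. Those with the lowest adjusted p were *Tcf7l2*, a further TCF factor, from 390.3 and 408.6 to 92.4 and 103.0 (-2.03 ± 0.10, adjusted p = 2.5e-06), *Gpc4*, a cell surface proteoglycan, from 15.3 and 14.3 to 56.2 and 58.4 (log2 fold change 1.95), and the Notch ligand *Jag1*, from 1.44 and 1.15 to 20.7 and 15.4 (3.79). *Tcf7* and *Tcf7l2*, members of 1 transcription factor family, hence moved in opposite directions in the same cells.

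The ligands were unevenly spread over the luminal ER- clusters of LATS1/2-KO, as the plot of ligands by cluster shows. These are levels within clusters, given in unscaled CPM for LATS1/2-KO 1 and 2 with no test. *Wnt7b* was at 37.7 and 24.9 in cluster 3, which carried all 10 luminal ER- markers, at 262.0 and 308.9 in cluster 8 (leading genes *Ankrd1* and *Ctgf*) and at 345.6 and 390.4 in cluster 11 (*Ptgs2* and *Sox11*). In cluster 5 it was at 70.2 and 53.6. The WT clusters 1, 2, 10 and 14 held *Wnt7b* at 19.1 to 55.0, a range that takes in both values of cluster 3. Cluster 4, led by the cell cycle genes *Ube2c* and *Cdk1*, held *Wnt7b* at 198.7 and 193.3 and *Nkd2* at 59.2 and 60.6. *Wnt7a* was at 1.1 and 0.8 in cluster 3, 33.0 and 48.6 in cluster 8 and 65.0 and 65.0 in cluster 11. Clusters 8 and 11 carried 7 luminal ER- markers each and in addition 5 and 6 of the 10 basal ones. *Wnt5a* was near 2 to 3 CPM in cluster 8 but at 49.4 and 69.9 in cluster 11, so that this ligand was found mainly in the latter. *Nkd2* was less uneven, at 21.5 and 23.1 in cluster 3, 63.3 and 53.3 in cluster 8 and 35.5 and 36.9 in cluster 11.

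**Figure D3:**
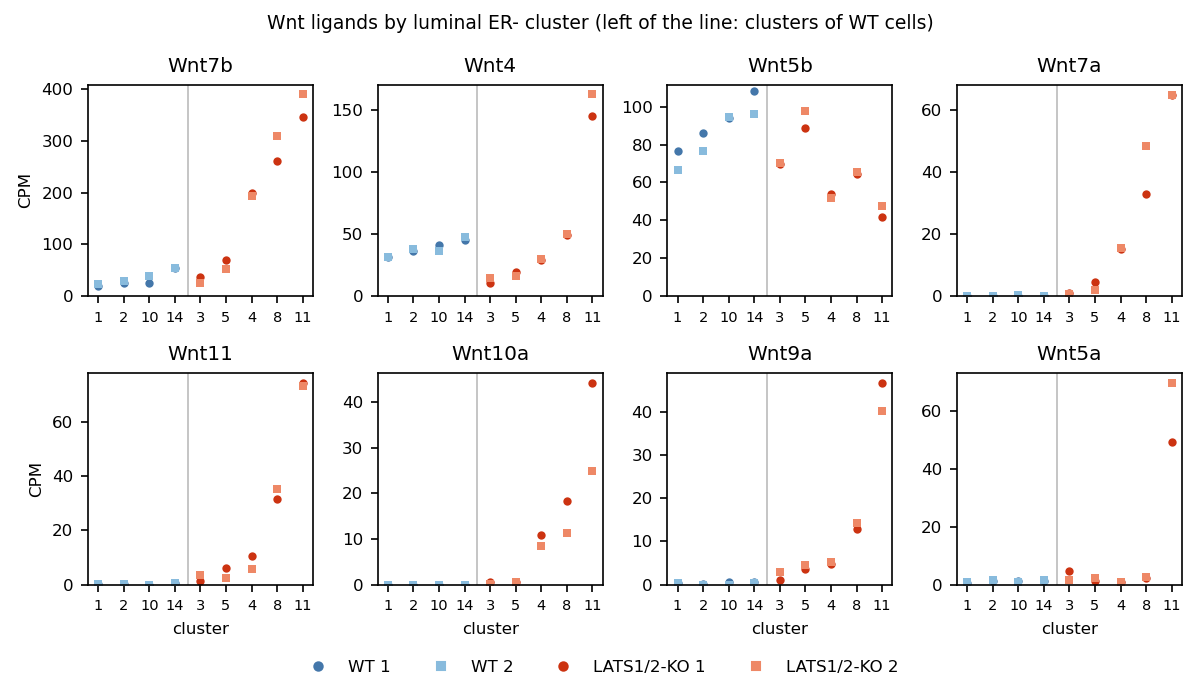
CPM of 8 Wnt ligands in each luminal ER- cluster with linear axes that start at 0, 1 point per library; clusters 1, 2, 10 and 14 hold WT cells and clusters 3, 5, 4, 8 and 11 LATS1/2-KO cells. Of the 8 ligands, Wnt5b alone was not highest in cluster 11, where Wnt7b reached 345.6 and 390.4 CPM.

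Left without clusters 8 and 11, the LATS1/2-KO libraries kept 1726 and 1743 luminal ER- cells, and 25 of the 27 calls remained. *Wnt7b* then differed by 1.82 on the log2 scale, *Wnt11* by 4.24 and *Wnt9a* by 3.56. *Wnt4*, at 40.7 and 39.7 against 21.4 and 19.8, had a log2 fold change of -0.96 in that fit. Calls were lost for *Wnt5a* (0.38, adjusted p = 0.307) and *Porcn* (0.44, adjusted p = 0.0869). *Fzd5*, not called over all luminal ER- cells, was called lower (-0.40, adjusted p = 0.0299). In that fit 62.1% of all genes were called. Cluster 4, with 694 and 466 LATS1/2-KO cells, stayed in it. That cluster carried 4 basal markers, and the limit for leaving a cluster out was 5. Over all luminal ER- cells, the 4 markers of cycling cells summed to 13.7 and 21.1 CPM in WT against 572.1 and 418.6 in LATS1/2-KO. The shift of the cells across clusters moved with the condition, and its part in the remaining differences was not tested.

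Since the study sets these cells in the context of YAP/TAZ and of TEAD, the DNA-binding partner of these co-activators, promoter sequence was examined for the TEAD motif GGAATG and the TCF/LEF motif CTTTGA in the 250 bases before each RefSeq start (build GRCm38.p6) on both strands; no matches printed here overlap. RefSeq promoters were at hand for 35 of the 54 members (43 starts), and not for *Wnt7b*, *Wnt10a*, *Wnt5a* or *Porcn* among others. The TEAD motif was present in 1 of the 43 member promoters (2.33%), against 12.6% of 32851 promoters of all genes, and the TCF/LEF motif in 5 of 43 (11.6%), against 13.8%. Of the 8 members higher in luminal ER- cells with an entry, *Lgr4* held the TEAD motif and *Wnt11* and *Fzd1* the TCF/LEF motif. Shown are the ligands *Wnt7a* and *Wnt11* and the feedback gene *Nkd2*, with differences of over 40-fold, and *Lgr4* with its 2 TEAD matches; they are written 5′ to 3′ on the gene's strand with matches in capitals.
Wnt7a, chr6:91411354-91411603, minus strand: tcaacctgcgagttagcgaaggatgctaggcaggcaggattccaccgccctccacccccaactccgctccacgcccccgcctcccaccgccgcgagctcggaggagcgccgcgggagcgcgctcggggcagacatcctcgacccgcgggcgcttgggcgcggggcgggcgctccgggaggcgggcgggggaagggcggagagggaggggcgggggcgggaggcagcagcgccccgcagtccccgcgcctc
Wnt11, chr7:98834862-98835111, plus strand: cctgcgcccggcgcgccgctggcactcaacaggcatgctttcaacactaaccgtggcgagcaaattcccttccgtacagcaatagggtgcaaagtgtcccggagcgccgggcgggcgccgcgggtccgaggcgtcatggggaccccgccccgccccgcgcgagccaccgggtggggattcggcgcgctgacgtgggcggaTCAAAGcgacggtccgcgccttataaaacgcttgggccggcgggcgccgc
Nkd2, chr13:73847632-73847881, minus strand: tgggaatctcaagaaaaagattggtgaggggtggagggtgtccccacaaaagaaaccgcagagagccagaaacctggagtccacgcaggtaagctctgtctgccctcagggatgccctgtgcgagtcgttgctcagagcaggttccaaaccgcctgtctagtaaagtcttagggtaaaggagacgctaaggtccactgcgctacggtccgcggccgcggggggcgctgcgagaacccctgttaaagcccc
Lgr4, chr2:109917397-109917646, plus strand: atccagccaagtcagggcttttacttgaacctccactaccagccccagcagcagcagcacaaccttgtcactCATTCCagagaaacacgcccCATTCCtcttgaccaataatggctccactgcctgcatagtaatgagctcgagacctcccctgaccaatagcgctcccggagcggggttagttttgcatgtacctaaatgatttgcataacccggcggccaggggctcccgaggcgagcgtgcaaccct
Neither motif occurred in the windows of *Wnt7a* and *Nkd2*, the former with 77.6% G and C. The match in *Wnt11* and both matches in *Lgr4* lay on the opposite strand (TCAAAG and CATTCC), those in *Lgr4* ending 172 and 152 bases before the start. A match is a description of letters in a window.

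Luminal ER+ cells shared part of this pattern and had a larger rise of *Porcn*. Of 29 members tested, 11 were higher and 3 lower in LATS1/2-KO (48.3%), beside 30% of all genes called (15.5% higher, 14.5% lower); the median log2 fold change was 0.48 over these members and -0.01 over all genes. *Porcn* was at 16.4 and 10.6 in WT against 157.6 and 168.9 in LATS1/2-KO (log2 fold change 3.59 ± 0.21, adjusted p = 2.7e-04). This was about 12-fold, compared with 1.61-fold in luminal ER- cells, and the difference between the 2 effects was 2.97 ± 0.23 on the log2 scale (adjusted p = 2.6e-07). *Wnt4* kept the highest level among ligands and was not called (log2 fold change 0.41, adjusted p = 0.069). *Wnt5a*, also present at a substantial level in these cells, overlapped between conditions (40.5 and 56.2 against 70.1 and 46.7).

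Ligands that rose in luminal ER+ cells were *Wnt7b*, at 23.3 and 30.7 against 62.6 and 67.8 (1.26 ± 0.16, adjusted p = 0.0019), and *Wnt11*, at 1.47 and 2.88 against 9.72 and 12.8 (2.32 ± 0.40, adjusted p = 0.0058), a call lost without LATS1/2-KO 1 (adjusted p = 0.0548). *Wnt9a* rested on few molecules, with 5 and 1 UMIs in WT and 8 and 3 in LATS1/2-KO, at 0.272 and 0.0514 against 1.81 and 1.92 (3.44 ± 0.84, adjusted p = 0.0213). Free RNA alone would give 0.95 and 0.86 CPM of it in the LATS1/2-KO libraries. *Wnt5b* fell, from 12.7 and 10.9 to 5.88 and 3.20 (-1.23 ± 0.28, adjusted p = 0.0157), a call lost with single cells gated on their own markers (adjusted p = 0.0805) and with sums thinned to the smallest library (0.072). Free RNA would give 3.70 and 3.25 CPM of *Wnt5b* in the LATS1/2-KO libraries, where 5.84 and 3.23 unscaled CPM were measured, so that its level in LATS1/2-KO 2 was not above free RNA. The inhibitor *Dkk2* had no UMI in WT and 30 and 8 in LATS1/2-KO (6.78 and 5.12 normalized CPM), at least 80.2-fold higher. It passed the filter through the LATS1/2-KO libraries alone. In luminal ER- cells *Dkk2* was not tested.

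Among receptors, *Fzd1* was at 2.66 and 2.31 against 7.01 and 7.68 (1.54 ± 0.31, adjusted p = 0.0103) and *Fzd5* at 9.45 and 7.19 against 17.2 and 17.3 (1.05 ± 0.21, adjusted p = 0.0104). Both calls were lost without LATS1/2-KO 1 (adjusted p = 0.068 and 0.0883), and with free RNA subtracted *Fzd1* had an adjusted p of 0.0758. *Fzd6* at 14.8 and 14.5 against 20.1 and 23.0 (0.53 ± 0.16, adjusted p = 0.0438) and *Lgr4* at 7.06 and 6.01 against 10.9 and 10.2 (0.70 ± 0.22, adjusted p = 0.0496) lay just under the threshold. Neither was called when any 1 of the 4 libraries was left out, with adjusted p from 0.0916 to 0.113 for *Fzd6* and from 0.0545 to 0.271 for *Lgr4*. The co-receptor *Lrp6* was lower, at 63.9 and 61.0 against 46.4 and 46.7 (-0.43 ± 0.11, adjusted p = 0.0265; 0.0683 to 0.0935 without WT 1 or either LATS1/2-KO library). *Lgr6* was at 7.01 and 6.88 against 2.71 and 0 (-1.85 ± 0.56, adjusted p = 0.046). That call was lost with DESeq2 (adjusted p = 0.0525), with a mitochondrial limit of 10% (0.0529) and with the highest doublet scores left out (0.0621). The conditions did not overlap in any of these 6 genes, as in 23 of the 29 members tested in this lineage. The share of all genes apart in this lineage was not counted.

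Of targets, *Tcf7* was at 2.72 and 3.24 against 10.4 and 9.60 (1.76 ± 0.27, adjusted p = 0.0039; 0.0537 without LATS1/2-KO 1). *Nkd2* had 2 and 0 UMIs in WT against 16 and 12, a ratio of 88.6 with a 95% counting interval from 22.3 to 767. Free RNA would give 4.0 and 3.4 CPM of *Nkd2* in these LATS1/2-KO libraries, where 3.6 and 7.8 unscaled CPM were measured, so that in LATS1/2-KO 1 its level did not exceed free RNA. Of 38 further pathway genes tested, 9 were higher and 4 lower (median 0.21). The share called, 34.2%, was close to the 30% of all genes. The lowest adjusted p belonged to *Myc*, from 45.4 and 38.5 to 85.7 and 90.2 (1.06), *Tcf7l2*, from 83.9 and 89.6 to 58.1 and 53.1 (-0.63), and *Cd44*, from 21.5 and 21.8 to 43.0 and 33.3 (0.85). *Myc* and *Cd44* have been described as targets of the canonical branch. *Tcf7l2* was thus lower in both luminal lineages.

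**Figure D4:**
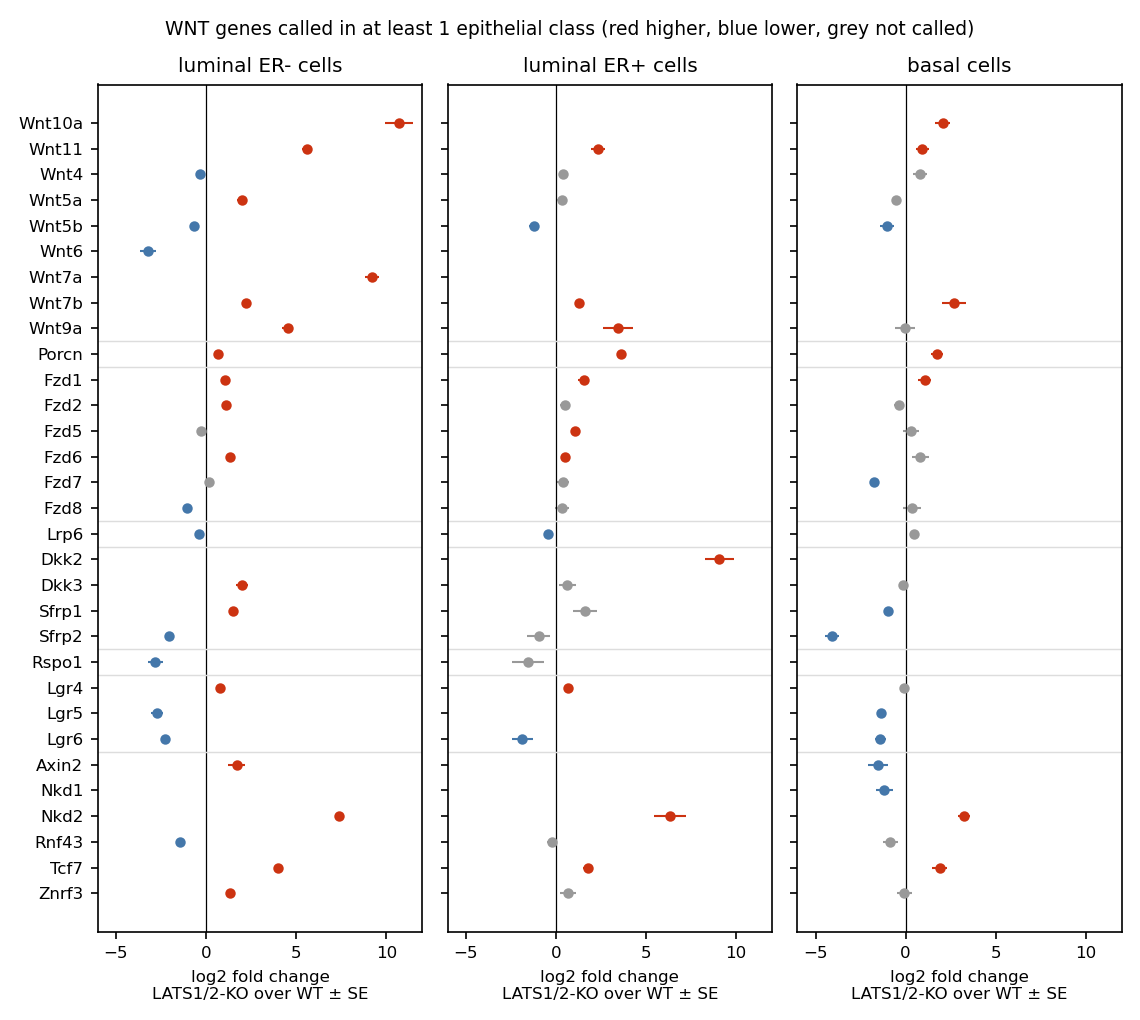
Fitted log2 fold change of LATS1/2-KO over WT ± SE for WNT genes called in at least 1 epithelial lineage; red, higher; blue, lower; grey, tested and not called; no point, not tested. Fitted values of genes at or near 0 UMIs in WT (Wnt10a and Wnt7a in luminal ER- cells, Dkk2 and Nkd2 in luminal ER+ cells) depend on the prior count of the fit; Wnt7b, Wnt11, Porcn, Fzd1, Nkd2 and Tcf7 have red points in all 3 panels.

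In basal cells the R-spondin receptors *Lgr5* and *Lgr6*, the receptor *Fzd7* and the inhibitors *Sfrp1* and *Sfrp2* were lower in LATS1/2-KO, while *Nkd2*, *Porcn* and *Wnt10a* were higher. Of 29 members tested, 7 were higher and 8 lower in LATS1/2-KO (51.7%), beside 34.9% of all genes (17.2% higher, 17.6% lower), with a median log2 fold change of -0.02 over these members and 0.00 over all genes. With library totals in place of TMM, 59.7% of all calls in basal cells were higher, against 49.4%. WT basal cells lay in cluster 16 and LATS1/2-KO ones in cluster 7. The estimated share of free RNA in these basal sums was 16.3% to 28.7%, against 3.03% to 8.49% in luminal ER- cells. The WT sums held 197 and 161 cells.

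*Sfrp2* was at 47.6 and 45.5 in WT against 1.71 and 3.43 in LATS1/2-KO (-4.08 ± 0.39, adjusted p = 7.2e-14), near the 2.77 and 2.61 CPM that free RNA would give there. *Sfrp1* was at 118.9 and 159.3 against 76.8 and 65.2 (-0.97 ± 0.18, adjusted p = 1.5e-05). *Fzd7*, a receptor known from mammary basal and stem cells, was at 98.1 and 112.3 against 28.2 and 34.3 (-1.74 ± 0.21, adjusted p = 2.1e-10). *Lgr5* was at 75.8 and 113.8 against 29.0 and 44.3 (-1.34 ± 0.22, adjusted p = 3.6e-06), and *Lgr6* at 31.2 and 45.5 against 12.8 and 15.6 (-1.41 ± 0.31, adjusted p = 1.6e-04; 0.0643 without WT 2). In these 5 genes every WT library was above every LATS1/2-KO library. The conditions were apart, in either direction, in 22 of the 29 members tested in basal cells, and the share over all genes was not counted. *Lgr4*, at 66.9 and 85.0 against 66.6 and 75.8, overlapped between conditions and was not called.

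The feedback genes of basal cells split. *Nkd2* was at 10.4 and 6.07 against 76.0 and 80.8 (3.24 ± 0.33, adjusted p = 7.0e-13). *Nkd1*, its paralog, was at 11.9 and 13.7 against 5.12 and 5.93 (-1.18 ± 0.48, adjusted p = 0.0467), and *Axin2* had 7 UMIs in each WT library against 5 and 15, at 10.4 and 10.6 against 2.13 and 4.68 (-1.54 ± 0.54, adjusted p = 0.0208). Calls of *Nkd1* and *Axin2* were lost without WT 1 (adjusted p = 0.167 and 0.203) and without WT 2 (0.261 and 0.211). *Axin2*, higher in luminal ER- cells, was hence lower in basal cells, at a few UMIs. *Tcf7* was at 10.4 and 4.55 against 31.2 and 25.0 (1.88 ± 0.42, adjusted p = 2.5e-04).

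Of 7 Wnt ligands tested in basal cells, 3 were higher (*Wnt10a*, *Wnt11* and *Wnt7b*), *Wnt5b* was lower, and *Wnt4*, *Wnt5a* and *Wnt9a* were not called. *Wnt10a* was at 13.4 and 3.03 against 41.8 and 28.1 (2.05 ± 0.42, adjusted p = 1.1e-04; 0.054 without WT 2), and *Porcn* at 11.9 and 15.2 against 47.8 and 44.0 (1.75 ± 0.32, adjusted p = 1.0e-05). With cells gated one by one on their own markers neither was past the threshold, at 2.09 for *Wnt10a* (adjusted p = 0.0863) and 0.77 for *Porcn* (adjusted p = 0.0753). *Wnt11* was at 16.4 and 15.2 against 38.4 and 23.1 (0.93 ± 0.35, adjusted p = 0.0315), and *Fzd1* at 10.4 and 16.7 against 23.0 and 33.1 (1.07 ± 0.36, adjusted p = 0.0159). These last 2 were close to the threshold. Without WT 1 or WT 2 the adjusted p was 0.189 and 0.216 for *Wnt11* and 0.252 and 0.0577 for *Fzd1*, without LATS1/2-KO 1 it was 0.331 for *Wnt11*, and without LATS1/2-KO 2 it was 0.199 for *Fzd1*. *Wnt7b* had 2 and 1 UMIs in WT and 43 and 38 in LATS1/2-KO, a ratio of 6.48 with a 95% counting interval from 2.14 to 32.1 (adjusted p = 7.3e-04; 0.0609 without WT 2). Its 18.7 and 12.4 unscaled CPM were below the 41.4 and 23.5 CPM that free RNA would give in those libraries, so that it was not above free RNA there. *Wnt5b* was at 22.3 and 18.2 against 11.9 and 8.42 (-1.01 ± 0.39, adjusted p = 0.0337) and likewise near free RNA in LATS1/2-KO (12.2 and 8.8 CPM measured, 12.4 and 8.0 from free RNA). It was not called without any 1 library (adjusted p 0.0628 to 0.279), and under the same gate its direction was the opposite (1.03, adjusted p = 0.0194).

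Of 37 further pathway genes tested in basal cells, 8 were higher and 8 lower (median 0.02), or 43.2% called beside 34.9% of all genes. *Cd44*, a target and adhesion molecule, went from 50.5 and 30.3 to 236.0 and 201.9 (2.43). The secreted inhibitor *Wif1* went from 111.5 and 100.1 to 19.2 and 16.8 (-2.56), and *Bambi*, a decoy receptor of TGF-beta family signals and a known WNT target, from 111.5 and 86.5 to 34.1 and 38.1 (-1.45). With *Wif1*, *Sfrp1* and *Sfrp2*, 3 secreted WNT-binding inhibitors were lower in these cells.

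Within the LATS1/2-KO glands, luminal ER- cells with at least 1 EYFP UMI (526 and 694) were compared with those without (1908 and 1865), with the mouse as block. The reporter marks cells in which Cre was active, and a cell without a UMI may still be recombined. Of 8 Wnt ligands tested, 6 were higher in the marked cells, *Wnt5b* was lower, and *Wnt5a* was not called (log2 difference 0.17, adjusted p = 0.537). Of 30 members tested, 8 were higher and 6 lower, beside 40.1% of all genes called (19.4% higher, 20.7% lower). Values are given as unmarked and marked cells of LATS1/2-KO 1, then of LATS1/2-KO 2. *Wnt7b* was at 147.6 and 241.7, then 112.9 and 258.0 (log2 difference 0.95 ± 0.11, adjusted p = 0.0011). *Wnt7a* was at 13.4 and 26.7, then 13.2 and 31.1 (1.13 ± 0.11, adjusted p = 3.8e-07). *Wnt11* was at 12.1 and 23.9, then 9.72 and 23.6 (1.13 ± 0.12, adjusted p = 9.5e-07). In both mice these 3 ligands were about 2-fold higher in the marked cells, and were well above their WT levels in the unmarked cells too.

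*Wnt10a* was at 8.22 and 17.1, then 2.99 and 12.9 (1.49 ± 0.21), *Wnt4* at 30.1 and 45.3, then 27.6 and 50.6 (0.74 ± 0.09, adjusted p = 5.5e-06), and *Wnt9a* at 5.88 and 11.4, then 7.38 and 10.8 (0.73 ± 0.16, adjusted p = 0.0015). Without the block the calls of *Wnt10a* (adjusted p = 0.118) and *Wnt9a* (0.0682) were lost, and that of *Wnt9a* also with DESeq2 (0.0807). *Fzd6* and *Rspo1* were the other 2 that were higher (log2 differences 0.35 and 0.86). *Rspo1*, at 2.82 and 6.81, then 3.69 and 5.24, was thus higher in marked than in unmarked cells although both were below WT. Lower in the marked cells were *Wnt5b*, *Lgr6*, *Lrp5*, *Lrp6*, *Rnf43* and *Sfrp2*, by 0.29 to 1.01 on the log2 scale, as the paired plot shows. *Nkd2* did not differ detectably between marked and unmarked cells (-0.08), nor did *Tcf7* (0.13). Marked cells were more deeply sampled, with median UMIs of 13872 and 15481.5 against 6853.5 and 6897. Thinned to 2000 UMIs per cell, 5 members were called, and 8 of the calls that could be repeated were lost: *Fzd6*, *Lgr6*, *Lrp5*, *Lrp6*, *Rnf43*, *Rspo1*, *Wnt5b* and *Wnt9a*, the last with a log2 difference of 0.20 (adjusted p = 0.755). *Wnt7b*, *Wnt7a*, *Wnt11* and *Wnt4* were past the threshold in every setting tried. No test without 1 of the mice was possible here, as it would leave 1 pair.

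**Figure D5:**
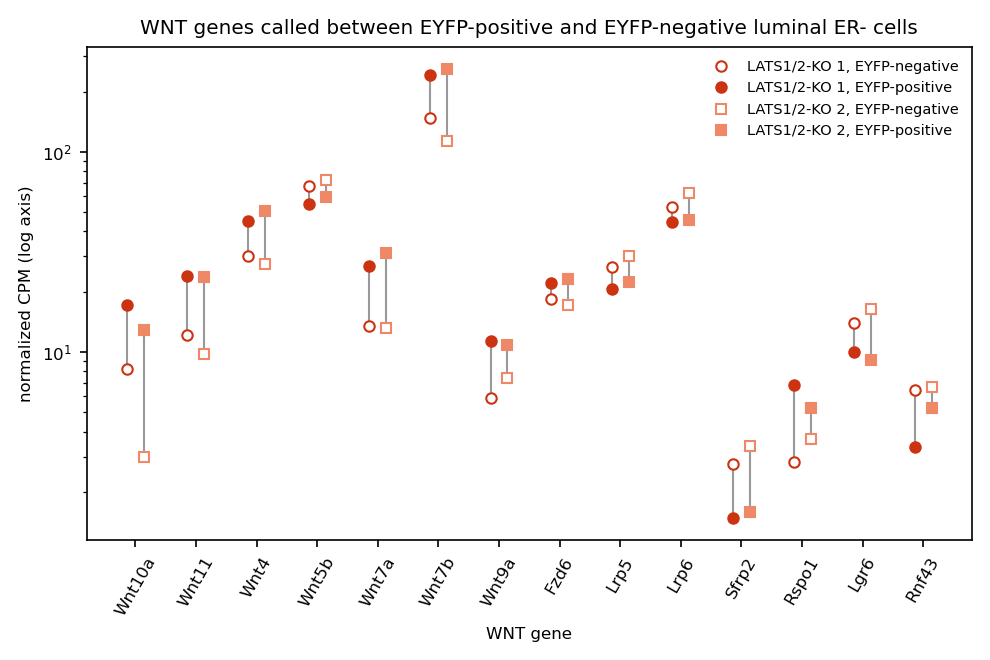
Normalized CPM, on a log axis, of the 14 WNT genes called between EYFP-positive (filled) and EYFP-negative (open) luminal ER- cells in LATS1/2-KO 1 (circles) and 2 (squares), each pair joined by a line. Every pair of a gene points the same way in both mice, upward for the 6 ligands Wnt10a, Wnt11, Wnt4, Wnt7a, Wnt7b and Wnt9a and downward for Wnt5b; with cells thinned to 2000 UMIs neither Wnt9a nor Wnt5b was past the threshold.

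Fibroblasts are taken as a source and a target of WNT signals in the gland. Of 27 members tested, 3 were called, each higher in LATS1/2-KO (11.1%, beside 6.28% of all genes, 2.94% higher and 3.34% lower). In all, 11 had an unadjusted p under 0.05, and DESeq2 called 2 members. *Dkk3* was at 99.9 and 59.9 against 355.1 and 243.2 (1.83 ± 0.35, adjusted p = 0.0108) and *Nkd2* at 21.4 and 15.0 against 145.9 and 89.6 (2.60 ± 0.47, adjusted p = 0.0077). For both, each LATS1/2-KO library was above each WT library. The conditions were apart, in either direction, in 17 of the 27 members tested in fibroblasts, and the share over all genes was not counted. *Wnt7b* had no UMI in the 62 and 28 WT fibroblasts and 43 and 88 UMIs in LATS1/2-KO, at least 2.67-fold higher. It passed the filter through the LATS1/2-KO libraries alone, and its 22.6 and 16.5 unscaled CPM were close to the 20.2 and 15.0 CPM expected from free RNA. No member was called without WT 1 or without WT 2, with adjusted p of 0.222 and 0.183 for *Dkk3*, 0.246 and 0.138 for *Nkd2*, and 0.309 and 0.164 for *Wnt7b*.

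The fibroblasts of LATS1/2-KO held subtypes that were nearly missing in WT, where 2 cells fell outside cluster 6. Cluster 6, the largest, is here called inflammatory-type (60 and 28 WT cells, 150 and 757 LATS1/2-KO cells). Its leading genes, such as *Apod*, *Cpxm1* and *Cxcl13*, held none of the 6 inflammatory-type markers listed, which were not scored by cluster. Over all fibroblasts these markers summed to 743.1 and 839.7 CPM in WT against 434.2 and 804.9 in LATS1/2-KO. Cluster 20 had the myofibroblast-type markers *Postn* and *Lrrc15* among its leading genes, whereas *Col5a1* and *Col1a1* led cluster 18. In a coarser clustering (resolution 0.4), a cluster with *Col5a1*, *Col1a1* and *Rgs5* among its leading genes was named perivascular. *Dkk3* in LATS1/2-KO 1 and 2 was at 387.4 and 457.2 CPM in cluster 18 and 481.4 and 445.5 in cluster 20, against 180.6 and 149.7 in cluster 6. *Fzd1* was at 453.9 and 421.1 in cluster 18, 336.8 and 320.7 in cluster 20 and 132.8 and 64.4 in cluster 6. *Sfrp4* was the reverse, at 42.5 and 33.4 in cluster 6 and 0 in both libraries of cluster 18. The ligands *Wnt2* (93.1 and 129.2) and *Wnt5a* (104.1 and 70.1) were highest, among the fibroblast clusters, in cluster 20. These are levels of clusters and carry no test.

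Among inflammatory-type fibroblasts alone, 5 of 16 members tested were called, beside 14.2% of all genes. *Dkk3* differed by 0.93 ± 0.30 (adjusted p = 0.0496) and *Nkd2* by 1.52 ± 0.45 (adjusted p = 0.038). *Wnt4* had 1 and 4 UMIs in WT and was at 4.03 and 31.4 against 74.3 and 50.3 (2.13 ± 0.64, adjusted p = 0.0404). Free RNA would give 24.2 and 31.2 CPM of *Wnt4* in all WT fibroblasts and 14.1 and 8.23 in LATS1/2-KO. Its WT levels were thus near or below free RNA. The calls in this subset were not repeated without single libraries or with free RNA subtracted. *Wnt5a* was lower, at 60.5 and 78.4 against 18.2 and 8.02 (-2.69 ± 0.49, adjusted p = 0.0021), and so was *Nkd1*, at 36.3 and 54.9 against 9.82 and 11.1 (-1.99 ± 0.46, adjusted p = 0.0098). The fall of *Wnt5a* did not appear in the sum of the 3 clusters (-0.51, adjusted p = 0.677), in which cluster 20 took part. *Nkd1* and *Nkd2* moved in opposite directions, as in basal cells. Of 35 further pathway genes in all fibroblasts, 2 were higher and 1 lower (8.57%, beside 6.28% of all genes). *Ptk7* went from 7.13 and 0 to 128.6 and 58.3, *Ror1* from 14.3 and 0 to 58.9 and 45.3, and *Bambi* from 60.6 and 67.3 to 16.2 and 16.1 (adjusted p = 0.0107 for *Bambi*). *Ptk7* and *Ror1* code for receptors of signalling without beta-catenin.

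In endothelial cells 1 of 9 members tested was called (11.1%, beside 7.4% of all genes, 3.44% higher and 3.96% lower). The inhibitor *Dkk2* had 6 and 23 UMIs in WT against 7 and 5 in LATS1/2-KO, at 25.2 and 102.2 against 5.54 and 4.15 (-3.65 ± 0.63, adjusted p = 0.0021), a call lost without WT 2 (adjusted p = 0.173). Summed levels of the 4 lymphatic endothelial markers were 334.4 CPM in WT 2, the library with the most *Dkk2*, against 41, 49.5 and 89.5 CPM in WT 1, LATS1/2-KO 1 and LATS1/2-KO 2, and their part in the result was not tested. *Fzd4* was not called (151.5 and 111.0 against 101.3 and 102.8). Of 30 further pathway genes, 4 were lower and none higher (13.3%, beside 7.4% of all genes). The lowest adjusted p were those of *Bambi* (105.2 and 119.9 against 41.9 and 44.8), *Jag1* (88.4 and 191.0 against 46.7 and 49.8) and the endothelial protein C receptor *Procr* (256.7 and 213.2 against 117.9 and 111.9).

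In lymphocytes 0 of 3 members tested were called by edgeR or DESeq2, and 0 had an unadjusted p under 0.05, beside 0.485% of all genes called (0.393% higher, 0.0924% lower). *Lef1* was at 186.7 and 61.5 against 66.8 and 123, *Tcf7* at 210.1 and 95.3 against 116.8 and 147, and *Lrp6* at 14.9 and 55.4 against 0 and 37.6. The conditions overlapped in all 3, and LATS1/2-KO 1 gave 29 lymphocytes.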

How the data were processed

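The authors made 10x Genomics 3′ UMI counts per gene and barcode with Cell Ranger against mm10. The submitters' processing notes name version 3.1.0 and the file headers 6.1.2. The deposited counts are whole numbers that were not normalized, from 4 libraries of 1 mouse each, with 39319356 to 47321220 UMIs.

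Barcodes had to show over 500 genes and less than 20% of UMIs from mitochondrial genes. The cells kept were clustered in Seurat 5.3.0 (R 4.3.3, sctransform 0.4.2, 3000 variable genes less 24 WNT genes and EYFP, 20 components, resolution 0.8) and named from marker lists, with limits for naming set after marker levels had been seen. Class names say which markers a cluster carries. The name inflammatory-type was given to the largest fibroblast cluster without a marker score by cluster. No doublets were removed; Scrublet (scanpy 1.11.5) called 1, 0, 4 and 80 cells, too few to act as a filter, so the 5% of cells with the highest scores were left out as an alternative.

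The UMIs of a class were added up within each library. LATS1/2-KO was compared with WT by condition alone in edgeR 4.0.16, with the quasi-likelihood test after TMM scaling and filterByExpr, where each library had at least 20 cells of the class; macrophages and perivascular cells did not. P-values were adjusted by Benjamini-Hochberg over all genes tested, with a threshold of 0.05. Called members are named with values, and so are the highest of each family and the 3 lowest adjusted p of the 49 further pathway genes per class. A fold against a group at 0 UMIs uses a floor of 3 counts over that group; intervals of ratios are exact binomial at 95% and, like the floor, cover counting error only. Free RNA was estimated per library from genes a class is assumed not to make, with the library total as its profile. The test script recovered known changes in simulated data in which most genes did not change. In luminal ER- cells 64.4% of all genes were called, so the simulation did not check TMM scaling for such a case. Same-numbered WT and LATS1/2-KO libraries were not paired: deviations from the group means correlated at 0.009 to 0.058.

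The WNT genes, pathway list and comparisons were chosen with earlier results of these data known. Alternatives were RLE scaling, no low-count filter, DESeq2 1.42.0, a replicate block, leaving out each library, a 10% mitochondrial limit, resolution 0.4, a gate on single cells, Scrublet scores, thinned sums and subtraction of free RNA. Library totals without TMM, luminal ER- cells without clusters 8 and 11, and inflammatory-type fibroblasts alone were added after seeing the data.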

Additional observations from a re-analysis of the deposited data

Results flagged for a closer look

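The difference between luminal ER+ and luminal ER- cells in the LATS1/2-KO effect was tested for 34 members as a class by condition interaction with the library as block. 10 were called (edgeR, adjusted p under 0.05), a share close to the 28.8% of all genes tested. The cells of both classes came from the same 4 mice.

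For 4 members the log2 effect was larger, or of opposite sign, in luminal ER+ cells. The difference was 2.97 for *Porcn* (adjusted p = 2.6e-07), 1.44 for *Fzd5* (2.1e-04), 1.46 for *Fzd8* (0.0107) and 0.82 for *Wnt4* (8.8e-05). The effects on *Fzd8* were -1.08 in luminal ER- and 0.37 in luminal ER+ cells, and those on *Wnt4* -0.36 and 0.41. Neither gene was called in luminal ER+ cells. With library totals in place of TMM the effect on *Wnt4* in luminal ER- cells was 0.01. The difference of 1.33 for *Rnf43* (adjusted p = 0.0083) came with a fall of 1.46 in luminal ER- cells and a change of -0.22 that was not called in luminal ER+ cells.

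For the other 5 the effect was larger in luminal ER- cells. The differences were -3.16 for *Wnt11* (adjusted p = 6.9e-05), -2.22 for *Tcf7* (2.3e-04), -1.57 for *Wnt5a* (0.0465), -0.92 for *Wnt7b* (8.7e-05) and -0.71 for *Fzd6* (0.0177). *Wnt7b*, *Wnt11*, *Tcf7* and *Fzd6* rose in both classes.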

How the results depend on the processing

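Counts of WNT genes called were 27 in luminal ER-, 14 in luminal ER+, 15 in basal, 3 in fibroblast, 1 in endothelial and 0 in lymphocyte cells, and 14 between EYFP-positive and EYFP-negative cells. Leaving out each library in turn gave 25 to 26, 5 to 13, 8 to 12, 0 to 6, 0 to 1 and 0 to 0 in the 6 classes. The lowest counts came without LATS1/2-KO 1 in luminal ER+ cells (5), without WT 2 in basal (8) and endothelial cells (0), and without WT 1 or WT 2 in fibroblasts (0 each); the count of 6 in fibroblasts came without LATS1/2-KO 2. Sums thinned to the smallest library gave 5 in luminal ER+, 1 in fibroblast and 0 in endothelial cells, where 2 members were then tested. DESeq2 gave 9 in basal cells and 5 between EYFP-positive and EYFP-negative cells. Without the low-count filter there were 11 calls in fibroblasts, with library totals 5, and in inflammatory-type fibroblasts alone 5. A gate on single cells gave 1 call in lymphocytes. Between EYFP-positive and EYFP-negative cells, thinning to 2000 UMIs per cell gave 5.

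With the replicate number as a block, the pairing being one of number alone, 8 members were called in fibroblasts against 3 and 13 in luminal ER+ cells against 14; the counts in the other 4 classes were 27, 15, 1 and 0, as without it. The comparison of EYFP-positive with EYFP-negative cells has the mouse as block, and without it 4 members were called.

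Of 1024 values of called members under the alternatives, 896 kept their sign and stayed past the threshold, 126 kept their sign and did not, and 2 changed sign: *Wnt5b* in basal cells under the gate on single cells (1.03) and *Wnt4* in luminal ER- cells with library totals (0.0081). Past the threshold in every setting were 20 of 27 members in luminal ER-, 5 of 14 in luminal ER+, 6 of 15 in basal, 0 of 3 in fibroblast and 0 of 1 in endothelial cells, and 4 of 14 between EYFP-positive and EYFP-negative cells. The cause of these changes was not tested. WT stromal and basal sums of 28 to 197 cells limit what can be detected there.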

Other observations

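Cluster 17, left unnamed for want of lineage markers, held 163 and 120 cells of LATS1/2-KO 1 and 2 and no WT cell. *Crct1*, *Msln*, *Upk1b* and *Krt6a* led it. Its ligand levels were 425.4 and 523.6 CPM for *Wnt4*, 344.7 and 351.4 for *Wnt7b*, 158.3 and 123.7 for *Wnt11* and 128.0 and 92.8 for *Wnt5a*. *Wnt10a* was at 81.1 and 69.3, *Wnt7a* at 78.9 and 49.6 and *Wnt9a* at 61.1 and 44.8 CPM. For *Wnt7b*, *Wnt7a* and *Wnt11* these are of the order of the levels in luminal ER- cluster 11 or above, and no test was made between clusters.

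Perivascular cells had the highest *Nkd1* levels of any named class in WT, at 249.98 and 260.4 CPM (17 and 15 UMIs in 17 and 8 cells), against 39.3 and 26.9 CPM in LATS1/2-KO (11 and 8 UMIs in 64 and 75 cells). With so few WT cells this class was not tested, and the *Nkd1* levels of the 2 conditions did not overlap. *Fzd4* in the same cells was at 102.9 and 86.8 against 42.9 and 47.1 CPM. Summed levels of the 6 fibroblast markers in this class were 999.9 and 138.9 CPM in WT against 11780 and 5933 in LATS1/2-KO. Those of the 10 basal markers, *Acta2* among them, were 19950 and 24460 against 4828 and 8945. The part of these markers' cells in the *Nkd1* and *Fzd4* levels was not tested.

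Macrophages had 4 and 9 UMIs of *Wnt11* in 25 and 11 WT cells (41.0 and 176.5 CPM), against 16 and 10 UMIs in 330 and 458 LATS1/2-KO cells (12.7 and 5.5 CPM). Summed levels of the 9 lymphocyte markers in the macrophage class were 1392 and 1294 CPM in WT against 201.1 and 250.1 CPM in LATS1/2-KO, and their part in the *Wnt11* levels was not tested. The class itself was not tested either.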
